A study of Mus musculus with 6 samples.

Results

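The Schlafen genes form a small mouse family that sits in one cluster on chromosome 11, and 7 of its members (Slfn1, Slfn2, Slfn3, Slfn4, Slfn5, Slfn8 and Slfn9) were looked up by symbol in an RNA-seq table of 16895 genes. Of the 7, 5 had a row and 2, Slfn1 and Slfn4, had none. All 5 with a row passed the filter on low values. A further row, Slfn10-ps, is a transcribed pseudogene of the family, and it is described beside the members without being counted among them. Slfn14, a gene of the family outside the 7, had no row. The data come from 6 bulk RNA-seq libraries of fibroadipogenic progenitors (FAPs), the stromal cells of skeletal muscle that give rise to fibroblasts and adipocytes. Both groups were cells of C57BL/6 mice of both sexes, aged 3 to 6 months, sorted with magnetic beads as CD45-, CD31-, α7-integrin- and SCA-1+, and grown in medium with 20% serum and 10 ng/mL bFGF at 3% oxygen. Senescent FAPs (n = 3) had been exposed to 20 μM etoposide, a topoisomerase II poison, over 48 h and were kept drug-free for 5 days afterwards, whereas non-senescent FAPs (n = 3) were the control cells. The labels do not say that the 3 libraries of a group came from separate animals or cultures, so p-values measure the spread between these libraries, which may be technical, and whether control cells received a vehicle is not given in the sources used here. The model is a culture of sorted cells, in which senescence was set by 1 drug at 1 dose and read at 1 time.

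Schlafen genes take their name from the German word for sleep, because the first members were found to slow the growth of developing T cells. They fall into short members (Slfn1 and Slfn2), intermediate members (Slfn3 and Slfn4) and long members (Slfn5, Slfn8, Slfn9 and Slfn14), and the long ones carry a helicase-like domain that the others lack. Many are induced by type I interferon, several bind or cut transfer RNA and so restrain translation, and human SLFN11, a long member, is known for making cells sensitive to drugs that damage DNA. The comparison therefore asks how far each member changed in cells made senescent by such a drug.

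The sequences just before the transcription start are shown first for the 3 long members with a row and for Slfn2, because these 4 are the members whose level changed, and because 3 of them hold the core of the element bound by interferon regulatory factors. Each line gives the 250 bases before the RefSeq start on GRCm38.p6, read 5′ to 3′ in the direction of the gene, and capitals mark that core, GAAA followed by any 2 bases and a second GAAA, on either strand, so that a copy on the opposite strand reads TTTC, 2 bases, TTTC.
Slfn5 at chr11:82951852-82952101, + strand: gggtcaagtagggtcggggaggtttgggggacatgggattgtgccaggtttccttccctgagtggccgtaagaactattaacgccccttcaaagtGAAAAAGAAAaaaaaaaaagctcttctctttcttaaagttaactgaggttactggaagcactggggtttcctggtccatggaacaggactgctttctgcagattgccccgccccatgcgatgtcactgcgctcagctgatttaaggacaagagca
Slfn8 at chr11:83020811-83021060, - strand: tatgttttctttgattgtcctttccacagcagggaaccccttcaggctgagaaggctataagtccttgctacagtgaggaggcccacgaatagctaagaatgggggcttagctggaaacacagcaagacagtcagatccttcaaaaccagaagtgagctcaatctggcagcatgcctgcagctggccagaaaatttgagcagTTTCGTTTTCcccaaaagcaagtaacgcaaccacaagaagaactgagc
Slfn9 at chr11:82991831-82992080, - strand: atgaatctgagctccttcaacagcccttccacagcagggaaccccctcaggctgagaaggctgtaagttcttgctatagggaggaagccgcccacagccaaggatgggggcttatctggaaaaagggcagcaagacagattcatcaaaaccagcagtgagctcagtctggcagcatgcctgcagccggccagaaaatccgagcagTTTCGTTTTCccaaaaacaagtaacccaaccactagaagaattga
Slfn2 at chr11:83064862-83065111, + strand: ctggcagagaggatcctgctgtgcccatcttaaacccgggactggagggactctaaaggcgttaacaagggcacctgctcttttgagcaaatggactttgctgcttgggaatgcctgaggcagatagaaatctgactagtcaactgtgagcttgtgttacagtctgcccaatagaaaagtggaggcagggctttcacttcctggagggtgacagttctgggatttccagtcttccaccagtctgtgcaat

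All 7 members had a RefSeq window of 250 bases before and 50 after the start. Counted from the start, the core lay at -155 to -146 in Slfn5, on the strand of the gene, as GAAAAAGAAA. It lay at -45 to -36 in Slfn9 and at -48 to -39 in Slfn8, on the opposite strand in both and with the same letters, GAAAACGAAA. Slfn8 has a second RefSeq start further downstream, whose window holds the same copy. The windows of Slfn1, Slfn2, Slfn3 and Slfn4 did not hold it. Over all 32851 RefSeq windows of this length 3.44% held the core on either strand, and among tested genes with a window it was found for 20 of 44 interferon-stimulated genes (45.5%) and for 365 of 10131 genes overall (3.6%). Of 4 further motifs searched on both strands, TTCNNNGAA (8.30% of all windows) was in no member's window, TGANTCA (7.81%) was in that of Slfn4, an NF-kB site (4.51%) was in those of Slfn9 and Slfn1, and the p53 decamer (8.36%) was in none. No copy of the interferon core overlapped a match to another motif. Before their first starts, Slfn8 and Slfn9 were 85.1% identical over 242 aligned bases. In the GENCODE annotation, 7 of the 250 bases shown for Slfn5 lie in the first exon of a coding transcript and 117 in an exon of some Slfn5 transcript, while those shown for Slfn8, Slfn9 and Slfn2 lie in no exon of the family.

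Reads on genes ranged from 41415072 to 59915575 per library. Cdkn1a, the cyclin-dependent kinase inhibitor p21, had 259, 274 and 336 CPM (reads of a gene scaled to library size) in non-senescent FAPs and 1037, 1017 and 1060 in senescent FAPs, and Mki67, a marker of dividing cells, had 125, 247 and 101 CPM against 19.0, 9.80 and 9.27, so both separated the groups the way the labels name them. Other inhibitors of cyclin-dependent kinases went different ways. Cdkn1c rose by 0.66 on the log2 scale, and Cdkn1b and Cdkn2c fell by 1.72 and 1.41 on that scale. Cdkn2b had a log2 fold change of 0.30 (limma adjusted p = 0.282). Cdkn2a, which encodes p16, was at 85.5 and 90.0 mean CPM (log2 fold change 0.13, limma adjusted p = 0.765). This row counts the gene as a whole and does not separate its transcripts. By qPCR, the study reported raised p16 in etoposide-treated FAPs. CPM are given as deposited, where the authors divided reads by an effective library size, and 1 read was worth 0.0167 to 0.0225 CPM. In this scaling the median log2 fold change of the 14777 genes tested was -0.033. FAP markers were present in all libraries, with Pdgfra at 192 ± 58.4 CPM in non-senescent and 218 ± 35.7 CPM in senescent FAPs (SD, n = 3).

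Of the 5 members with a row, 3 rose in senescent FAPs (Slfn5, Slfn8 and Slfn2), 1 fell (Slfn9) and 1 did not pass the test (Slfn3). The threshold was an adjusted p under 0.05 with limma on log2(CPM + 0.5), adjusted over all genes tested, at which 46.1% of all genes were called, 21.8% as higher and 24.3% as lower. These shares depend on the scaling and on the libraries, with 4993 genes higher and 1930 lower by library totals alone, and 2130 higher without senescent replicate 2, in place of 3219 and 3592. The stricter threshold of the study, an unadjusted p under 0.01 with a log2 fold change beyond 1, was met by the same 4 members, and by 6.93% of all genes in the upward and 3.9% in the downward direction. The libraries of both groups did not overlap for these 4 members, which was so for 57.4% of all genes (26.5% with senescent libraries above and 30.9% with them below). In bulk RNA a change in the number of cells that express a gene cannot be told apart from a change in RNA per cell.

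**Figure D1:**
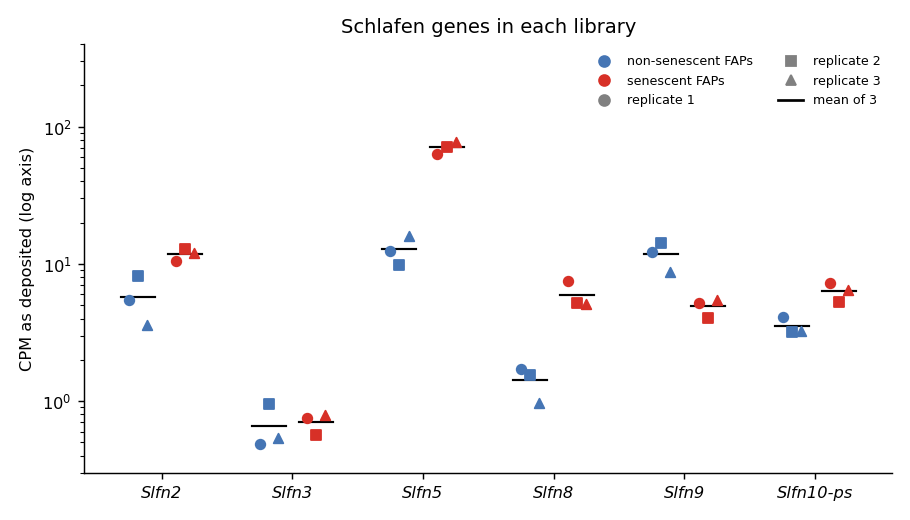
CPM of the 5 Schlafen members with a row and of the pseudogene Slfn10-ps in each of the 6 libraries, on a log axis. Symbols give the replicate, colours the group and horizontal lines the mean of 3 libraries. Slfn5 lies between 9.89 and 16.0 CPM in non-senescent and between 63.2 and 77.3 CPM in senescent FAPs, Slfn9 is the one gene whose senescent libraries all lie below the others, and only the libraries of Slfn3 overlap.

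Slfn5 (ENSMUSG00000054404.13), a long member whose protein acts in the nucleus, had the largest change of the family. It had 12.4, 9.89 and 16.0 CPM in non-senescent FAPs and 63.2, 70.9 and 77.3 CPM in senescent FAPs. The lowest senescent library was thus far above the highest non-senescent one, and these values rest on 520 to 894 and 3183 to 4235 reads. The mean went from 12.8 ± 3.1 to 70.5 ± 7.08 CPM (SD, n = 3), a 5.51-fold ratio. The log2 fold change was 2.44 (SE 0.17, 95% interval 2.05 to 2.83, limma adjusted p = 0.000143), and only 0.562% of the genes tested had a larger one. Between libraries of the same replicate number the log2 difference was 2.30, 2.78 and 2.23. Slfn5 shares no 50-base stretch of transcript with the rest of the family, although 3.37% of its 50-base windows recur in genes outside it. On the other strand 559 of its exon bases are also covered by an antisense gene, Slfn5os, which had no row. Whether counting used the strand is not given in the sources used here.

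Slfn8 (ENSMUSG00000035208.16), a long member from the branch of the family that holds human SLFN11, was low in non-senescent FAPs and rose. It had 1.72, 1.56 and 0.969 CPM there and 7.47, 5.22 and 5.11 CPM in senescent FAPs, on 54 to 82 and 227 to 376 reads. Every senescent library was above every non-senescent one. The mean went from 1.42 ± 0.395 to 5.93 ± 1.33 CPM, a 4.19-fold ratio. The log2 fold change was 1.75 (SE 0.22, 95% interval 1.24 to 2.26, limma adjusted p = 0.000861) and 1.80% of genes had a larger one. Because the added 0.5 CPM shrinks changes of low genes, the quasi-likelihood test of edgeR on recovered reads gave a larger estimate, 2.07 (adjusted p = 0.00119).

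Slfn9 (ENSMUSG00000069793.12), the closest relative of Slfn8, went the other way. It had 12.1, 14.3 and 8.78 CPM in non-senescent FAPs and 5.22, 4.07 and 5.47 CPM in senescent FAPs, on 489 to 751 and 243 to 263 reads. Here all 3 senescent libraries were below all 3 non-senescent ones. The mean went from 11.7 ± 2.77 to 4.92 ± 0.749 CPM, so that non-senescent FAPs had 2.39 times the senescent level. The log2 fold change was -1.16 (SE 0.20, 95% interval -1.62 to -0.70, limma adjusted p = 0.00310), and 2.99% of genes had a lower one. The differences between libraries of one replicate number were uneven, at -1.14, -1.69 and -0.64. Among non-senescent libraries Slfn9 was highest in replicate 2 and lowest in replicate 3, as was Mki67. The same order held for Slfn2, which rose in senescent FAPs. The part of dividing cells in the fall of Slfn9 was not tested.

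Slfn8 and Slfn9 lie next to each other on the same strand, and their coding sequences, each of 2730 bases or 910 codons, were 92.7% identical. The Slfn9 to Slfn8 ratio of CPM was 7.06, 9.16 and 9.06 in non-senescent FAPs and 0.699, 0.779 and 1.07 in senescent FAPs. Per kilobase of annotated exon, which allows for the longer exons of Slfn9, the ratio was 4.85, 6.28 and 6.21 in non-senescent and 0.480, 0.534 and 0.734 in senescent FAPs. On this scale Slfn9 was the higher of the pair in each non-senescent library and Slfn8 in each senescent one. By CPM, Slfn9 was still slightly the higher in senescent replicate 3, so this order depends on the exon length used. That length covers all annotated transcripts of a gene, and which of them were expressed was not tested. The groups did not overlap and the Slfn8 to Slfn9 ratio, averaged on the log2 scale, differed 10-fold (exact permutation test, two-sided p = 0.1, the smallest that 3 against 3 unpaired libraries allow). With libraries paired by replicate number, an exact sign-flip test cannot go below 0.25, and it gave 0.25 here. Reads from stretches the genes share may have been assigned to either, or to neither. Of all 50-base windows 9.30% of those in Slfn8 were also in Slfn9 and 6.52% of those in Slfn9 were also in Slfn8. With Slfn10-ps and the rest of the family included, 14.6% of Slfn8 windows and 11.2% of Slfn9 windows were shared, and with windows of 100 bases 3.38% and 3.71% were. The counting rule for such reads is not given in the sources used here, so both values carry this uncertainty. When both rows were added, the sum was 13.9, 15.8 and 9.75 CPM in non-senescent and 12.7, 9.29 and 10.6 CPM in senescent FAPs, with groups that overlapped. The sum had a log2 fold change of -0.25 (95% interval -0.71 to 0.21, limma adjusted p = 0.327), so both the call of a rise for Slfn8 and that of a fall for Slfn9 end when the genes are not told apart.

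Slfn10-ps (ENSMUSG00000072621.13), the pseudogene that lies beyond Slfn8, had 4.13, 3.18 and 3.25 CPM in non-senescent FAPs and 7.23, 5.25 and 6.46 CPM in senescent FAPs. Its groups did not overlap either. The log2 fold change was 0.76 (SE 0.17, 95% interval 0.37 to 1.15, limma adjusted p = 0.00879), and 19.7% of its 50-base windows were shared with other genes of the family, the largest share among the 6 rows. Adding it to the sum of Slfn8 and Slfn9 gave a log2 fold change of 0.048 (95% interval -0.36 to 0.45, adjusted p = 0.840).

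Slfn2 (ENSMUSG00000072620.3), a short member that keeps T cells and monocytes quiescent and shields transfer RNA from cleavage, rose as well. It had 5.47, 8.10 and 3.61 CPM in non-senescent FAPs and 10.5, 12.8 and 11.9 CPM in senescent FAPs, on 201 to 426 and 527 to 764 reads. The groups did not overlap, but the non-senescent libraries differed more among themselves than the senescent ones. The mean went from 5.73 ± 2.26 to 11.7 ± 1.17 CPM, a 2.05-fold ratio. The log2 fold change was 1.03 (SE 0.25, 95% interval 0.44 to 1.62, limma adjusted p = 0.0132), which 6.85% of genes exceeded. Without senescent replicate 2 the estimate was 0.97 and the call was lost (adjusted p = 0.0540), and it was kept without each of the other 5 libraries, with an adjusted p of at most 0.0499. Slfn1 (ENSMUSG00000078763.2), the other short member and the one first tied to arrested T cell growth, had no row.

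Slfn3 (ENSMUSG00000018986.10), an intermediate member best known from T cells and the lining of the gut, was the lowest of the members with a row. It had 0.491, 0.951 and 0.539 CPM in non-senescent FAPs and 0.755, 0.569 and 0.788 CPM in senescent FAPs, on 22 to 50 and 34 to 38 reads. The groups overlapped, with the highest and the lowest value both among non-senescent libraries. The log2 fold change was 0.070 (SE 0.20, 95% interval -0.38 to 0.52, limma adjusted p = 0.790), an interval that leaves room for a modest change in either direction. Its sign turned under quantile normalization (-0.26) and without non-senescent replicate 1 (-0.033). Slfn4 (ENSMUSG00000000204.16), the other intermediate member and mainly a gene of myeloid cells, had no row, and its coding sequence was 92.2% identical to that of Slfn3 over 1778 aligned bases. The least abundant row of the table still had 8 reads or more in 3 libraries. A gene without a row is given no value here, which does not show that it was not transcribed.

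**Figure D2:**
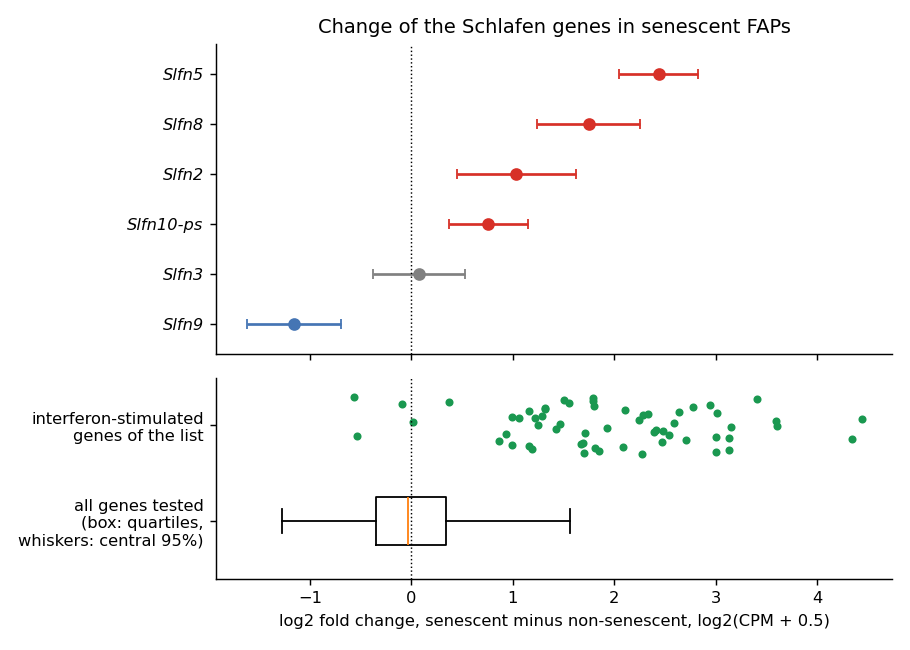
Upper panel, log2 fold change of each Schlafen gene with its 95% interval from limma. Colour is red where the interval lies wholly above no change, blue where it lies wholly below and grey where it spans no change. Lower panel, the same quantity for the 59 tested interferon-stimulated genes, where each point is a gene and the height within the row carries no value, and a box for all 14777 genes tested. Slfn5 at 2.44 and Slfn8 at 1.75 lie among the interferon-stimulated genes, and Slfn9 at -1.16 lies to the left of every one of them.

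Summed over the 5 members, the family had 32.2, 34.8 and 29.9 CPM in non-senescent FAPs and 87.1, 93.5 and 101 CPM in senescent FAPs. The means of 32.3 ± 2.42 and 93.7 ± 6.76 CPM differed 2.90-fold (exact permutation test, two-sided p = 0.1, or 0.25 with libraries paired by number, each the smallest possible). Without Slfn5 the sums were 19.8, 24.9 and 13.9 CPM against 23.9, 22.6 and 23.3 CPM, and the groups overlapped (exact permutation p = 0.4). This depends on the scale, since CPM weights long genes most: per kilobase of exon the sums without Slfn5 were 5.89, 7.92 and 4.03 against 9.21, 9.81 and 9.56, and the groups did not overlap (exact permutation p = 0.1). Slfn5 made up 40.2% ± 12.7 of the summed CPM in non-senescent and 75.1% ± 2.24 in senescent FAPs, and Slfn9 went from 36.0% ± 6.04 to 5.26% ± 0.837. The Slfn5 to Slfn2 ratio of CPM was 2.27, 1.22 and 4.45 in non-senescent and 6.04, 5.54 and 6.48 in senescent FAPs, groups that did not overlap (exact permutation p = 0.1). The Slfn5 to Slfn8 ratio was 10 ± 5.66 and 12.4 ± 3.49 and overlapped between groups (exact permutation p = 0.5).

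Levels of different genes were compared as CPM per kilobase of annotated exon, since the exons of Slfn5 add up to 6326 bases and those of Slfn2 to 1664. These lengths cover all annotated transcripts of a gene, so orders and shares on this scale depend on them. In non-senescent FAPs the order of mean levels was Slfn2 (3.44 CPM per kilobase), Slfn5 (2.02), Slfn9 (1.97), Slfn10-ps (0.971), Slfn8 (0.346) and Slfn3 (0.194). The ranges of Slfn2 and Slfn5, of Slfn5 and Slfn9 and of Slfn8 and Slfn3 overlapped. Within libraries, Slfn2 was above Slfn5 in 2 of 3, Slfn5 above Slfn9 in 1 and Slfn8 above Slfn3 in all 3. In senescent FAPs the order was Slfn5 (11.1 CPM per kilobase), Slfn2 (7.05), Slfn10-ps (1.74), Slfn8 (1.45), Slfn9 (0.825) and Slfn3 (0.206). Only the ranges of Slfn10-ps and Slfn8 overlapped, and Slfn10-ps was the higher in each of the 3 libraries. On this scale the short member Slfn2 held 42.1% ± 9.17 of the summed level of the members in non-senescent and 34.1% ± 2.16 in senescent FAPs. Slfn5 went from 26.7% ± 11.2 to 53.8% ± 2.08, Slfn9 from 24.5% ± 1.87 to 4.0% ± 0.681 and Slfn8 from 4.32% ± 0.912 to 7.10% ± 2.09.

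**Figure D3:**
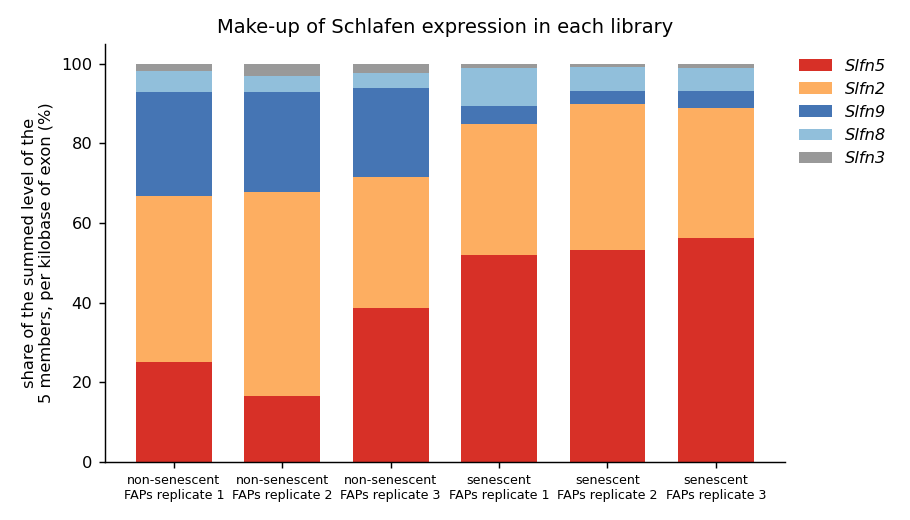
Share of each member in the summed level of the 5 members, in percent of CPM per kilobase of exon, as 1 stacked bar for each library. Slfn9 takes a mean of 24.5% in the 3 non-senescent libraries and 4.0% in the 3 senescent ones, and Slfn5 has the largest share in each senescent library, as it does in non-senescent replicate 3.

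On chromosome 11 of GRCm38 (GENCODE M21) the members with a row lie in the order Slfn5 (82951349-82964840, + strand), Slfn9 (82978390-82991830, - strand), Slfn8 (83002158-83020810, - strand), Slfn2 (83065112-83070678, + strand) and Slfn3 (83191330-83215154, + strand), with Slfn10-ps (83028130-83040042, - strand) between Slfn8 and Slfn2. The gene that fell thus lies between the 2 that rose most. The cluster was taken from Slfn5 to Slfn14 (83275110-83286726, - strand), which lies beyond Slfn3. Among genes that start within 500 kb of it, 17 others were tested, of which 4 rose and 4 fell (23.5% each, beside 21.8% and 24.3% of all genes). Their median log2 fold change was -0.12, beside -0.033 for all genes tested, and their range was -1.41 to 1.40. Unc45b, a chaperone of muscle myosin and the nearest listed gene before Slfn5, went from 0.195 to 1.10 mean CPM with a log2 fold change of 1.19 (limma adjusted p = 0.00578). It passed the filter only through senescent libraries, so it could not have been called lower, and it counts among the 4 that rose. At such low values the added 0.5 CPM shrinks the log2 fold change. Beyond Slfn3, AI662270 was listed but too low to test, and the next gene, AA465934, had a log2 fold change of -0.048 (adjusted p = 0.865). Gm11425, a processed pseudogene inside the cluster, had -0.67 (adjusted p = 0.0696).

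**Figure D4:**
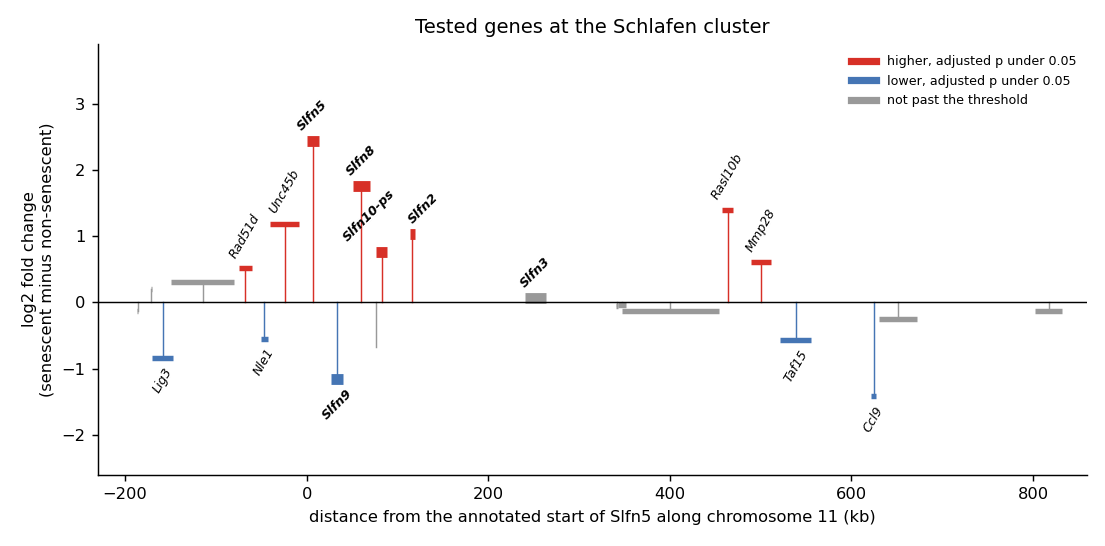
Log2 fold change of each tested gene within 500 kb of the Schlafen cluster, placed by its distance from the annotated start of Slfn5 in kb, with bars drawn to the length of the gene. Red marks genes that rose and blue genes that fell (limma, adjusted p under 0.05), and only these and the Schlafen genes are named. On this scale, which shrinks changes of low genes such as Unc45b, Slfn5 at 2.44 is the highest and Ccl9 at -1.41 the lowest. Slfn9 at -1.16 is a blue bar between the red bars of Slfn5 and Slfn8.

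Schlafen genes are usually counted among the genes that interferon induces, so the interferon pathway was read in the same libraries, from lists that were drawn up with earlier results of these data known. Among ligands, receptors and signalling genes 26 of 36 were listed and 23 tested, of which 8 rose and 5 fell, with a median log2 fold change of 0.15. The 10 without a row were all interferons, Ifnb1 included. Of the receptor chains for type I interferon, Ifnar1 fell from 109 ± 8.33 to 85.1 ± 2.42 CPM (log2 fold change -0.36, limma adjusted p = 0.00812), and Ifnar2 was at 34.7 and 38.1 mean CPM (0.14, adjusted p = 0.347).

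Stat2 and Irf9, which help to carry the type I signal into the nucleus, both rose. Stat2 went from 14.3 to 36.5 mean CPM (log2 fold change 1.34, limma adjusted p = 0.000660) and Irf9 from 14.5 to 33.7 (1.22, adjusted p = 0.00206). Irf7, which amplifies interferon production, had 2.16, 1.67 and 3.54 CPM against 21.2, 29.1 and 32.6 CPM (3.28, adjusted p = 0.000198). Usp18, a brake on the receptor, went from 1.28 to 19.6 mean CPM (3.54, adjusted p = 0.000143). All 3 senescent libraries were above all 3 non-senescent ones for Irf7.

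Of 64 other interferon-stimulated genes, 59 were tested, 55 rose and 2 fell (Isg20 and Samhd1), with a median log2 fold change of 1.81. Some of them, such as Mx1 and Oas3 (0.0223 and 0.0276 mean CPM in non-senescent FAPs), passed the filter only through senescent libraries. Such genes could not have been called lower, and they count in the 55, the median and the comparisons that follow. Ifit1, whose protein binds viral RNA, went from 1.61 to 42.6 mean CPM (log2 fold change 4.35), Ifit3 from 1.64 to 46.3 (4.44) and Oasl2 from 2.58 to 37.1 (3.6). Set beside this list, 19 of the 59 genes had a larger log2 fold change than Slfn5, 33 a larger one than Slfn8, 50 a larger one than Slfn2 and 59 a larger one than Slfn9. On this scale the 3 members that rose ranged from the upper to the lower part of the list, and Slfn9 lay below all of it. The added 0.5 CPM shrinks changes of low genes, so the places of the members that rose depend on it. Mx1, for example, went from 0.0223 to 0.966 mean CPM but had a log2 fold change of 1.47, below that of Slfn5.

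A list of genes that, like several Schlafen proteins, act on RNA or translation was described in the same way. It mixes interferon effectors with genes such as Eif2ak4 and Elac2, which are not among the interferon-stimulated genes above. Of 18, 17 were tested, 12 rose and 4 fell, with a median log2 fold change of 1.06, but 10 of the 17 also stand among the 59 interferon-stimulated genes. Those 10 hold 8 of the rises and 2 of the falls, and of the remaining 7 genes 4 rose and 2 fell, with a median of 0.35. Oas2, an interferon-induced sensor of double-stranded RNA, went from 0.0853 to 4.68 mean CPM (log2 fold change 3.13, limma adjusted p = 0.000132), and Eif2ak2, the kinase PKR that shuts off translation, rose by 1.25. Oas2 and Oas3 passed the filter only through senescent libraries, so neither could have been called lower. Those that fell were Eif2ak4, a sensor of uncharged transfer RNA (-0.51), Elac2, which trims transfer RNA (-0.51), Isg20 (-0.57) and Samhd1 (-0.54). Among 24 growth arrest and cyclin D genes, chosen because Schlafen genes were first described by growth arrest, 11 rose and 8 fell with a median of 0.31. Cdkn1a rose by 1.85, Ccnd1, which encodes cyclin D1, went from 118 to 485 mean CPM (2.15), Cdk4 fell by 0.82 and Top2a, the target of etoposide, fell by 3.50 on the log2 scale.

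Because Slfn1, Slfn2 and Slfn4 are best known from blood cells, leukocyte markers were read beside them. Of 27 markers 18 had no row, among them Ptprc, which encodes the sorted-out antigen CD45, and also Tyrobp and Adgre1. Laptm5, Fcer1g, Mrc1 and Coro1a were listed but too low to test. Of the 5 tested, 4 rose: Cd53 from 1.98 to 11.4 mean CPM, Lyz2 from 1.77 to 6.06, Cd68 from 1.47 to 4.81 and Itgam from 0.0223 to 0.631, while Csf1r was at 6.74 and 7.56 (log2 fold change 0.15, limma adjusted p = 0.343). Itgam passed the filter only through senescent libraries, so it could not have been called lower. The summed level of all listed leukocyte markers was 11.8 to 14.9 CPM in non-senescent and 27.7 to 34.3 CPM in senescent FAPs. These sums moved with Slfn5, Slfn8 and Slfn2, and the part of blood cells in the rise of the Schlafen genes was not tested. Endothelial markers summed to 19.2 to 39.5 CPM against 23.8 to 31.2 CPM, with Pecam1 (0.706 and 1.70 mean CPM) and Vwf (1.08 and 1.99) higher and Kdr (4.05 and 2.20) lower among 4 tested genes, and Emcn, Cldn5 and Erg had no row. Myogenic markers summed to 15.2 to 19.5 CPM against 24.3 to 31.3 CPM, with Itga7 (11.1 and 20.2 mean CPM) higher among 3 tested genes and neither Chrna1 (0.497 and 1.11) nor Des (6.07 and 7.36) past the test, and Pax7, Myod1, Myf5, Myog and Mymk had no row. Of the 10 FAP markers 5 rose, among them Cd34, Gsn and Lum (log2 fold changes 1.60, 0.86 and 1.98), and Col1a1 fell from 15545 to 3116 mean CPM.

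The genes whose profile over the 6 libraries was most like that of each member were found by the Euclidean distance between log2 values centred on each gene's mean. The nearest to Slfn5 were Trp53inp1 (distance 0.201), 1700007K13Rik (0.252) and Xaf1 (0.254), where the median distance of all genes was 3.09. The nearest to Slfn8 were Syt17 (0.289) and Mndal (0.370), with a median of 2.31. The nearest to Slfn9 were Rad54b (0.153), Dnph1 (0.173) and Dscc1 (0.182), with a median of 1.56. The nearest to Slfn2 were Msrb2 (0.243), Tmc3 (0.303) and Drc1 (0.321), with a median of 1.60. For Slfn3, whose values vary little, they were Map3k5 (0.172), Mrps6 (0.175) and Gnb4 (0.176), with a median of 0.791, and for Slfn10-ps they were Txlnb (0.153), Flot1 (0.210) and Mef2c (0.215), with a median of 1.17. The distances rest on 6 libraries that share the same split into groups.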

How the data were processed

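The libraries were made with a stranded mRNA kit and sequenced on an Illumina HiSeq. The authors deposited 1 table of CPM from edgeR (version 3.10 in R 3.6.0, build mm10, per the submitters' processing notes), a signal divided by an effective library size, so that columns summed to 919819 to 1090570. The aligner, the counter, the annotation and the filter on low values are not given in the sources used here. Dividing each value by what 1 read was worth gave whole numbers (100% of values, tolerance 0.01 read), so reads were recovered for alternatives, with library scaling factors of 0.917 to 1.09. The design had been written for CPM of library totals, but its test suits these values too.

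The 14777 genes that reached 0.5 CPM in 3 or more libraries entered a two-sided limma test (3.58.1, R 4.3.3) of log2(CPM + 0.5) with its variance trend and Benjamini-Hochberg adjustment. Alternatives used edgeR 4.0.16 and DESeq2 1.42.0 on recovered reads, other pseudocounts, filters and scalings, and fits without each library. Scripts were tested on simulated data. A chi-square statistic of 15.12 to 154.49 per gene between replicates showed no repeated library. Deviations of same-numbered libraries correlated at 0.537, 0.308 and 0.207. The labels number the replicates but do not state a pairing. The main limma test was unpaired. Replicate numbers were taken to pair the samples only in the exact tests said to be paired and in a replicate block, fitted as an alternative.

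The members, lists and markers were chosen with earlier results of these data known. Genes named were all Schlafen rows, the 3 with the smallest p in each list, the interferon chain, the 3 nearest profiles of each tested row, the listed neighbours, Cdkn1a and Mki67. Some genes that this rule names are not reported here. Others were picked after their values were seen. The sum of Slfn8, Slfn9 and Slfn10-ps, an edgeR fit with the block, the sums per kilobase and the exact test with paired libraries were added after seeing the data. Exon lengths came from GENCODE M21 and promoter windows from RefSeq (GRCm38.p6).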

Additional observations from a re-analysis of the deposited data

How the results depend on the processing

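Slfn5, Slfn8 and Slfn9 kept their direction and their call in every alternative fitted to their own rows, with log2 fold changes of 2.19 to 2.65, 1.52 to 2.11 and -1.34 to -0.96 and adjusted p of at most 0.00229, 0.00535 and 0.0164. Slfn2 stayed higher, at 0.77 to 1.52, but lost its call without senescent replicate 2 (0.97, adjusted p = 0.0540), which left 2 members higher. Slfn3 turned to -0.26 under quantile normalization and ranged from -0.033 to 0.24 when single libraries were left out, the lowest without non-senescent replicate 1. With the rows of Slfn8 and Slfn9 added, 0 members were lower in place of 1 and 2 were higher in place of 3. These counts dropped partly because both rows became a single row, in which changes of opposite direction offset each other. The planned sums of Slfn3 with Slfn4 and of Slfn1 with Slfn2 were not run, because Slfn4 and Slfn1 had no row. Over all genes, library totals alone gave 4993 higher and 1930 lower genes in place of 3219 and 3592, and moved the median log2 fold change from -0.033 to 0.17. Leaving out single libraries gave 2130 to 3406 higher and 2416 to 3875 lower genes, fewest higher without senescent replicate 2. The replicate block gave 3577 higher and 3947 lower genes and changed no call of a Schlafen row. Shares depend on the scale: per kilobase, 7 of the 10 moved by more than the spread between libraries. Depth limits Slfn3, with 22 to 50 reads a library, and counting error is only part of its spread.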
